A study of Oryctolagus cuniculus with 6 samples.

Results

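Expression of the basal and injury-associated keratins was measured by RNA-seq in cultured rabbit limbal stem cells (LSCs), the epithelial progenitors at the border of the cornea, with 3 libraries from fresh and 3 from preconditioned tissue. The keratins were fixed by name as KRT5, KRT14, KRT15, KRT17, KRT16 and KRT6A, and 4 of these 6 identifiers (KRT5, KRT15, KRT16 and KRT17) were found among the 22190 rows of the deposited count table. Keratin 14 is described there under the identifier LOC100344686, which was followed beside the 4 genes without being counted among them, and KRT6A was not analysed here. LSCs were grown from explants of the limbus, without prior storage for fresh LSCs. For preconditioned LSCs the corneas were first kept in liquid nitrogen for 7 days in a cryomedium with serum, dimethyl sulfoxide and 10 ng/mL IL-1β, an inflammatory cytokine, so that the effects of freezing and of IL-1β cannot be told apart. The strain, age and sex of the rabbits, and which animal gave each library, were not given in the sources used here, so that p values measure the spread between libraries, part of which may be technical.

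Keratins form the intermediate filaments of epithelial cells and assemble as pairs of 1 type I and 1 type II protein. Keratins 5 (type II) and 14 (type I) make up the filaments of basal cells in stratified epithelia. KRT15 encodes another type I keratin of basal cells, which is used as a marker of limbal and hair follicle progenitors. KRT16 and KRT17 encode type I keratins that are induced in wounded and inflamed epithelium together with their type II partners of the keratin 6 family, while KRT17 is also found in appendages and basal cells.

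Libraries had 31952352 to 34327534 counts on genes. On the first principal component of log2 CPM (counts scaled to a common library size), preconditioned replicate 1 lay at 8.13, between the fresh libraries (−53.1 to −41.1) and the other preconditioned libraries (58.3 and 70.4). Therefore, the differences below are also given without it where it matters. The epithelial identity of the cultures was examined with markers, and TP63, PAX6, EPCAM and CDH1 were expressed in every library, whereas KRT12 was not analysed here. The summed expression of 9 genes of stromal fibroblasts was 472 to 1036 CPM in fresh LSCs and 779 to 1630 CPM in preconditioned LSCs, and none of the 9 was at 0 in all libraries or passed the cutoffs given below. Immune markers summed to 94.6 to 130.2 CPM in fresh and 122 to 307 CPM in preconditioned libraries, and melanocyte and endothelial markers to at most 13.0 CPM in any library. None of these markers was called by edgeR, while DESeq2 called 1 immune and 1 melanocyte marker, where edgeR called 2.29% and DESeq2 5.37% of all genes. The 4 tested immune markers all had fold changes toward higher expression in preconditioned LSCs. CD68, a macrophage marker, was at 97.6, 129 and 93.4 CPM in the fresh replicates and 121, 299.6 and 288 CPM in the preconditioned replicates. The immune sum was therefore almost entirely CD68. The tested immune markers PTPRC, CD74 and ITGAM were each at most 4.157 CPM in any library (ITGAM in preconditioned replicate 2). Without preconditioned replicate 1, the macrophage marker CD68, the melanocyte marker TYRP1, the endothelial marker PECAM1 and PAX6 were called higher, as were 3.98% of all tested genes. TYRP1 had only 4 to 79 counts per library, and the melanocyte marker MITF went the other way in that fit (log2 fold change −0.43). With all 6 libraries, the melanocyte markers PMEL, TYR, DCT and MLANA and the endothelial markers CDH5, VWF and KDR had too few counts to be tested. The part of these cells in the keratin values was not tested. In bulk RNA, fewer cells of a type and less RNA per cell cannot be told apart.

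The keratins spanned more than 3 orders of magnitude, and their order was the same in both groups. On the FPKM scale, which divides the count by the library's total and by 1 length per gene, LOC100344686 (keratin 14) was highest with 3798 ± 263 in fresh LSCs (SD, n = 3) and 4823 ± 1191 in preconditioned LSCs (SD, n = 3). KRT5 followed with 1155 ± 133 and 999 ± 256 FPKM (SD, n = 3 each). KRT16 came next with 308 ± 58.4 and 157 ± 108 FPKM (SD, n = 3 each). KRT17 was expressed at 33.6 ± 15 and 18.3 ± 9.86 FPKM (SD, n = 3 each), and KRT15 at 2.20 ± 1.68 and 2.25 ± 2.78 FPKM (SD, n = 3 each). In neither group did the libraries of one keratin overlap with those of the next in this order. By FPKM, keratin 14 was the 10th highest row of the table in fresh LSCs and the 8th in preconditioned LSCs, whereas KRT15 ranked 9982 and 9490.

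The order of KRT5 and keratin 14 depended on the length by which the authors divided. That length, recovered from the ratio of counts to FPKM, was 8811 bases for KRT5, 1653 for LOC100344686, 1657 for KRT16, 1453 for KRT17 and 1716 for KRT15. Among the other 17 tested keratin rows it was 1387 to 7591 bases (the longest for KRT13), with a median of 2074. Without division by length, KRT5 held 1.02% of all counts in fresh LSCs and 0.880% in preconditioned LSCs, against 0.628% and 0.797% for LOC100344686. By counts, KRT5 ranked 3 in fresh LSCs and 6 in preconditioned LSCs among all rows. The distance of KRT5 from other keratins on the FPKM scale therefore rests on this length. In a RefSeq table of the rabbit assembly mOryCun1.1, used for gene names and gene order only, 6 protein-coding genes without a symbol lie between KRT75 and KRT5, where the keratin 6 genes lie in the human genome. These 6 genes were not analysed here, and whether their reads were counted for KRT5 or elsewhere was not tested.

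**Figure D1:**
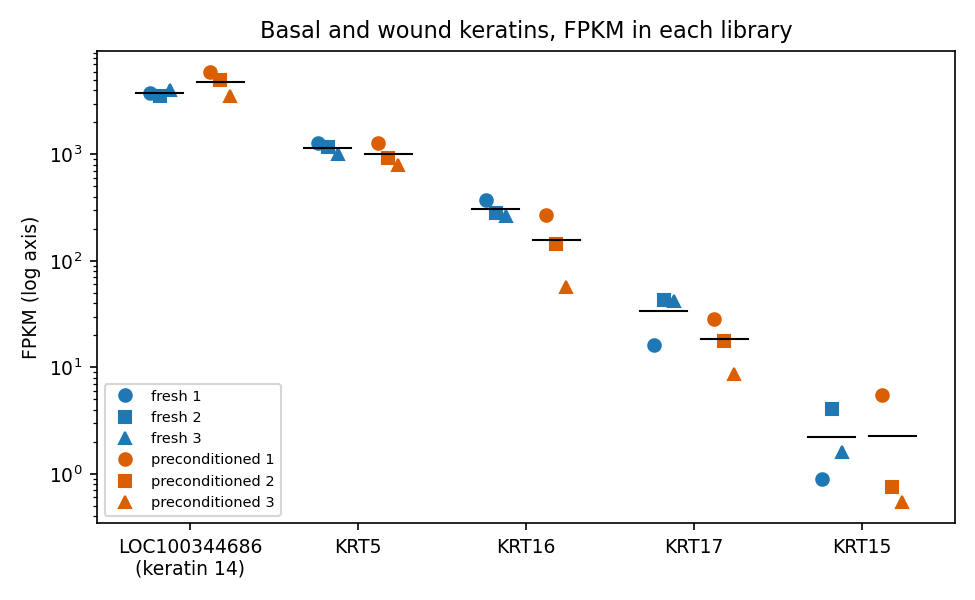
FPKM on a log axis for each keratin row, with 1 point per library (circle, square and triangle for replicates 1, 2 and 3), fresh libraries in blue and preconditioned libraries in orange; black bars are group means. Keratin 14 and KRT5 stand at the top and KRT15 at the bottom in both groups, and KRT16 reaches its lowest value, 57.0 FPKM, in preconditioned replicate 3.

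Next, expression was compared between the fresh and preconditioned groups with edgeR's quasi-likelihood test over 15029 genes that passed a filter on low counts, all 4 keratins among them. A gene was called where its adjusted p (Benjamini-Hochberg) did not exceed 0.05 and the log2 fold change (log2FC) of preconditioned over fresh LSCs was 1 or more in size, the cutoffs of the study. None of the 4 keratins was called, where 2.29% of all tested genes were. DESeq2 also called 0 of 4, where it called 5.37% of all genes. At an unadjusted p under 0.05 there were 0 of 4 with edgeR and 0 of 4 with DESeq2, against 30.6% of all genes with edgeR. Of the 4, 3 had a log2FC below 0, and the median was −0.38, against 0.01 over all tested genes. The groups overlapped for each of the 4 keratins, whereas they did not overlap for 36.7% of all tested genes.

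KRT5, the type II keratin of basal cells, had a difference smaller than the spread between libraries. It was expressed at 1279, 1170 and 1014 FPKM in fresh replicates 1, 2 and 3 and at 1285, 921 and 791.5 FPKM in the preconditioned replicates. Preconditioned replicate 1 had the highest value of all and the other preconditioned libraries the lowest, so that the groups overlapped. The log2FC was −0.04 (standard error, SE, 0.20, adjusted p = 0.90). With scaling by library size alone, which shifted the median of all tested genes from 0.01 to −0.16, it was −0.21, and it turned to 0.11 without preconditioned replicate 3 and to 0.04 without fresh replicate 1.

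Keratin 14, the type I partner of keratin 5, was higher on average in preconditioned LSCs. LOC100344686 had 3804, 3532 and 4058 FPKM in the fresh replicates and 5908, 5011 and 3549 FPKM in the preconditioned replicates. Preconditioned replicates 1 and 2 lay above all fresh libraries, and replicate 3 lay among them. The log2FC was 0.51 (SE 0.20, unadjusted p = 0.033, adjusted p = 0.13), which did not pass the cutoffs. Without preconditioned replicate 3 it was 0.70 (adjusted p = 0.090), and without preconditioned replicate 1 it was 0.35 (adjusted p = 0.197).

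The balance within the pair was then examined in each library, a comparison added after the values had been seen. The ratio of KRT5 to LOC100344686 FPKM does not depend on the scaling of the library. It was 0.336, 0.331 and 0.250 in the fresh replicates and 0.218, 0.184 and 0.223 in the preconditioned replicates. Every preconditioned library thus had less KRT5 per keratin 14 than every fresh library, including preconditioned replicate 1. The means were 0.306 ± 0.0486 and 0.208 ± 0.0213 (SD, n = 3 each), a difference of −0.55 in mean log2 ratio (exact 2-sided permutation test, p = 0.1, the smallest that 3 libraries against 3 allow). Leaving out each library gave differences of −0.69 to −0.46. On counts without the lengths, the ratio was 1.63 ± 0.259 in fresh LSCs and 1.11 ± 0.113 in preconditioned LSCs (SD, n = 3 each), with the same difference.

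KRT15, the basal keratin used as a progenitor marker, had the lowest expression of the 4 and varied most within groups. It had 50, 236 and 95 counts in the fresh replicates and 319, 44 and 30 counts in the preconditioned replicates, which is 0.891, 4.10 and 1.61 FPKM against 5.46, 0.749 and 0.547 FPKM. The highest library of each group, fresh replicate 2 and preconditioned replicate 1, stood apart from the others of its group. The spread between libraries, given as the biological coefficient of variation estimated by edgeR, was 0.781 for KRT15, with a median of 0.235 over all tested genes. The log2FC was 0.18 (SE 0.95, adjusted p = 0.92). Its direction rested on single libraries, since it was −1.58 (SE 0.70, adjusted p = 0.14) without preconditioned replicate 1 and 0.99 without fresh replicate 2.

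KRT4 and KRT13, a keratin pair of non-cornified mucosal epithelia such as the conjunctiva, were high in the same 2 libraries as KRT15. KRT13 had 8.26, 20.6 and 8.78 TMM-scaled CPM in the fresh replicates and 61.1, 8.95 and 3.92 in the preconditioned replicates. KRT4 had 2.20, 13.1 and 3.15 CPM in the fresh replicates and 44.2, 4.73 and 1.55 CPM in the preconditioned replicates. For all 3 genes, fresh replicate 2 was the highest fresh library and preconditioned replicate 1 the highest of all. Pearson's r of log2 CPM with KRT15 over the 6 libraries was 0.941 for KRT13 and 0.934 for KRT4, a description chosen after the values had been seen. KRT19, a keratin of limbal and conjunctival epithelium, had an r of 0.811, and KRT3, the type II keratin of differentiated corneal epithelium, one of 0.506. Other keratins also had an r above that of KRT3: 0.773 for KRT17, 0.668 for KRT5, 0.634 for KRT18 and 0.567 for KRT16. It was 0.276 for LOC100344686 and −0.238 for KRT8. These r values share the same 6 libraries and the difference between the groups. Not all markers of the conjunctiva followed KRT15. KRT7 had 522, 788 and 955 CPM in the fresh replicates and 1112, 1200 and 388 CPM in the preconditioned replicates, with an r of 0.542. MUC4 was highest in fresh replicate 2 (2055 CPM), and its highest preconditioned library was replicate 1 (412 CPM, against 219 and 114 CPM). Unlike KRT15, however, it was lower in preconditioned replicate 1 than in fresh replicate 1 (536 CPM). The part of conjunctival cells in the KRT15 values was not tested. The summed expression of 5 conjunctival markers (KRT4, KRT13, KRT7, KRT19 and MUC4) was 2965 to 6747 CPM in fresh LSCs and 2025 to 5077 CPM in preconditioned LSCs.

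**Figure D2:**
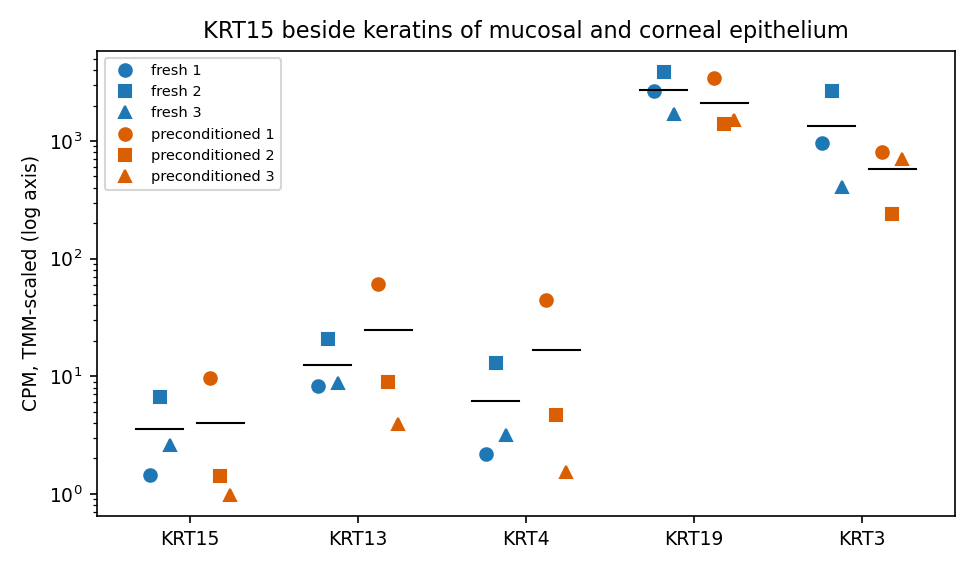
TMM-scaled CPM on a log axis for KRT15 and 4 other keratins, with 1 point per library (shape by replicate number, blue for fresh and orange for preconditioned) and group means as black bars. Fresh replicate 2 and preconditioned replicate 1 are the highest libraries of their groups for KRT15, KRT13, KRT4, KRT19 and KRT3.

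KRT16, the injury-associated type I keratin with the highest expression here, was lowest in preconditioned replicates 2 and 3. It was expressed at 375, 284 and 266 FPKM in the fresh replicates and at 271, 143 and 57.0 FPKM in the preconditioned replicates. Preconditioned replicate 1 lay above fresh replicate 3, so that the groups overlapped by 1 library, while the other preconditioned libraries lay below all fresh libraries. The log2FC was −0.81 (SE 0.50, adjusted p = 0.31). Its coefficient of variation on FPKM was 19.0% in fresh LSCs and 68.7% in preconditioned LSCs. Without preconditioned replicate 1 the log2FC was −1.44 (SE 0.45, adjusted p = 0.074), and without preconditioned replicate 3 it was −0.41 (adjusted p = 0.41). In the fit without preconditioned replicate 1, 9.99% of all tested genes were called, and KRT16 was not among them.

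KRT17, the other injury-associated type I keratin, was expressed about an order of magnitude below KRT16. Its values were 16.3, 42.8 and 41.7 FPKM in the fresh replicates and 28.4, 17.6 and 8.74 FPKM in the preconditioned replicates. Fresh replicate 1 lay below preconditioned replicates 1 and 2, and the groups overlapped. The log2FC was −0.71 (SE 0.50, adjusted p = 0.37), and −1.16 (SE 0.57, adjusted p = 0.195) without preconditioned replicate 1. KRT16 and KRT17 did not keep a fixed proportion. The ratio of their FPKM was 23.0 in fresh replicate 1 and 6.37 to 9.54 in the other 5 libraries. KRT14, KRT16 and KRT17 are similar in sequence, and reads could have been shared between them in the counting.

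**Figure D3:**
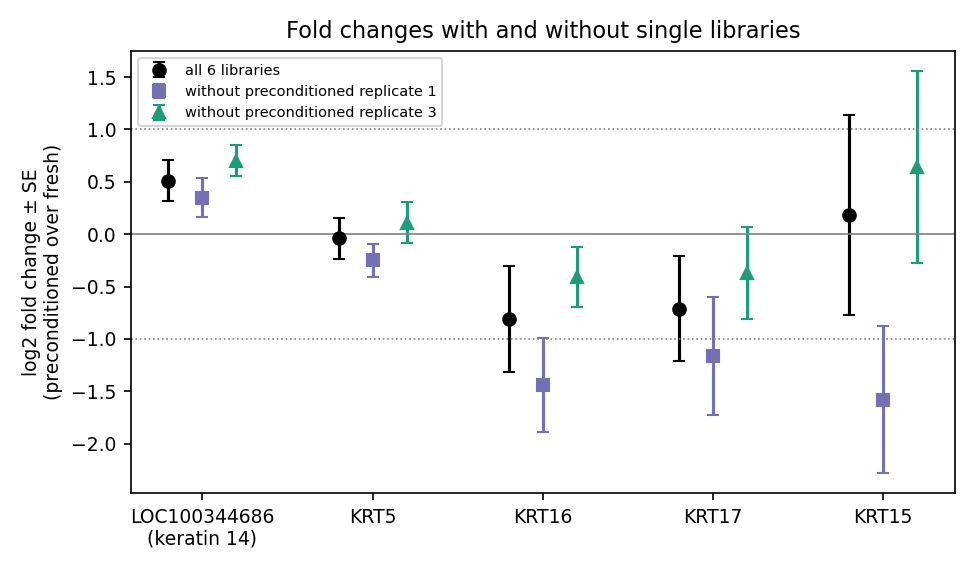
Log2FC of preconditioned over fresh with its SE for each keratin row, with all 6 libraries (black circles), without preconditioned replicate 1 (purple squares) and without preconditioned replicate 3 (green triangles); dotted lines mark the fold change cutoff. KRT16 moves from −0.81 to −1.44 and −0.41, and KRT15 from 0.18 to −1.58 and 0.64.

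The injury-associated keratins were then set against the basal keratins within each library. The summed FPKM of KRT16 and KRT17 divided by that of KRT5 and KRT15 was 0.306, 0.279 and 0.303 in the fresh replicates and 0.232, 0.174 and 0.0830 in the preconditioned replicates. Every preconditioned library lay below every fresh library, including preconditioned replicate 1, although neither KRT16 nor KRT17 separated the groups by itself. The means were 0.296 ± 0.0148 and 0.163 ± 0.0752 (SD, n = 3 each), a difference of −0.98 in mean log2 ratio (exact 2-sided permutation test, p = 0.1, the smallest possible here). Leaving out single libraries gave differences between −1.30 (without preconditioned replicate 1) and −0.56 (without preconditioned replicate 3). With keratin 14 added to the basal keratins it was −1.42. KRT16 and KRT5 alone gave −1.0, so the ratio reflects these 2 genes for the most part, and on CPM without the lengths the difference was −0.98.

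**Figure D4:**
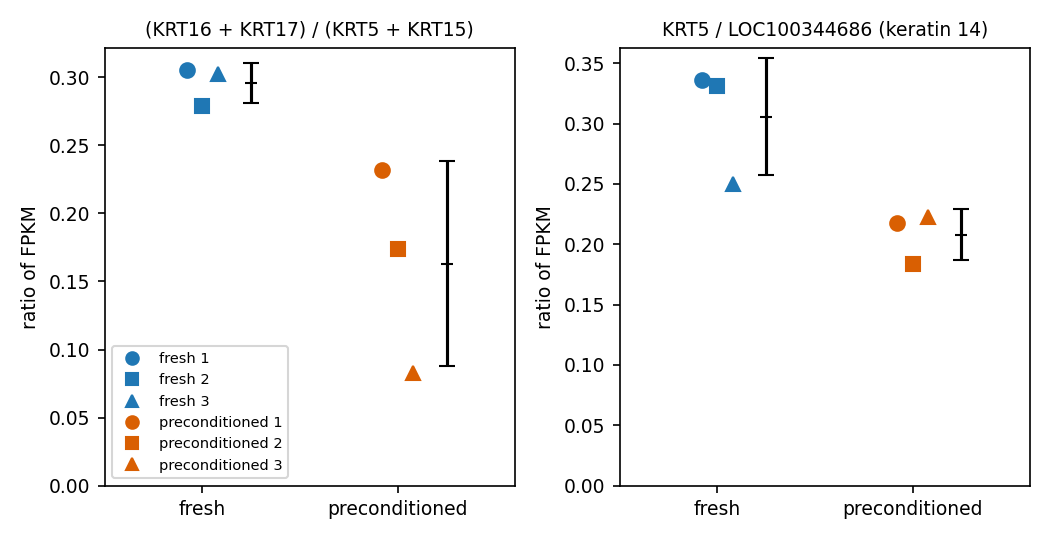
Ratios of FPKM in each library, on the left KRT16 plus KRT17 over KRT5 plus KRT15 and on the right KRT5 over LOC100344686 (keratin 14); points are libraries (shape by replicate number) and black bars are the mean ± SD of 3 libraries. In both panels all preconditioned libraries lie below all fresh libraries.

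The sum over the type I rows KRT15, KRT16 and KRT17 per FPKM of KRT5, the only type II gene of the 4, was 0.298 ± 0.0130 in fresh LSCs and 0.165 ± 0.0773 in preconditioned LSCs (SD, n = 3 each), a difference of −0.98 in mean log2 ratio (exact permutation p = 0.1). This direction depended on keratin 14. Once LOC100344686 was included, the ratio was 3.63 ± 0.587 in fresh LSCs and 5.01 ± 0.545 in preconditioned LSCs (SD, n = 3 each), a difference of 0.47 (exact permutation p = 0.1). The summed FPKM of the 4 keratins was 1671, 1502 and 1323 in the fresh replicates and 1590, 1082 and 858 in the preconditioned replicates, and the groups overlapped (exact permutation p = 0.3).

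Among 37 other keratin rows, 17 passed the filter and none was called by edgeR or DESeq2, against 2.29% and 5.37% of all genes. At an unadjusted p under 0.05 there were 3 of 17 by edgeR, against 30.6% of all tested genes, and 4 of 37 by DESeq2, which was run without that filter, against 23% of all genes. Of the 17, 10 had a log2FC above 0 and 7 below 0, with a median of 0.19. KRT19 was the most abundant at 2090 ± 832 FPKM in fresh LSCs and 1452 ± 820 FPKM in preconditioned LSCs (SD, n = 3 each), a log2FC of −0.37 (adjusted p = 0.59). KRT3 had 625 ± 546 and 242 ± 129 FPKM (SD, n = 3 each), with a log2FC of −1.21 (adjusted p = 0.30), and its fresh libraries ranged from 192 to 1238 FPKM. KRT8 and KRT18, the pair of simple epithelia, had log2FCs of 0.72 (adjusted p = 0.13) and 0.19 (adjusted p = 0.55), and KRT7, another simple keratin, one of 0.25 (adjusted p = 0.72). KRT10, a keratin of suprabasal cells, was at 13.6, 15.5 and 11.0 FPKM in the fresh replicates and at 17.2, 17.4 and 20.3 FPKM in the preconditioned replicates, without overlap, but did not pass the cutoffs (log2FC 0.62, adjusted p = 0.061). KRT78 was at 52.1 ± 28.7 and 48.4 ± 20.4 FPKM (SD, n = 3 each). The other rows above 10 FPKM were LOC100008885, described as keratin 18, with a log2FC of −0.87 (adjusted p = 0.15), and LOC100339421, described as keratin 25, with one of −1.66 (adjusted p = 0.21). LOC100339421 was called without preconditioned replicate 1 (log2FC −2.88), as were 9.99% of all tested genes (6.01% lower).

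The genes known to act with the basal keratins were examined as a list of 33, of which 32 were in the table and tested. None was called by edgeR and 1 (EPPK1) was called by DESeq2, against 2.29% and 5.37% of all genes. An unadjusted p under 0.05 by edgeR was seen in 12 of 32, where 30.6% of all tested genes had one. The median log2FC of the list was 0.10. Without overlap between the groups, 6 genes were higher and 6 lower, where 17.9% of all tested genes were higher and 18.8% lower. Of 7 genes of transmembrane hemidesmosome proteins and the laminin they bind, a sublist that leaves the plakins PLEC and DST to the linkers, none was called, and 6 had a log2FC above 0, as had 50.5% of all tested genes. Their median was 0.58, and 4 of the 7 were higher without overlap between the groups, where 17.9% of all tested genes were. LAMB3, a chain of the laminin to which hemidesmosomes bind, had 204, 192 and 234 FPKM in the fresh replicates and 378, 418 and 316 FPKM in the preconditioned replicates. Its log2FC was 0.99 (SE 0.16, adjusted p = 0.032), just under the fold change cutoff. An adjusted p of at most 0.05 was reached by 5.08% of all tested genes. LAMB3 kept a log2FC of 0.87 to 1.10 when single libraries were left out. However, its adjusted p stayed under 0.05 only without preconditioned replicate 1 (0.011) or 3 (0.047). It was called without preconditioned replicate 3 (log2FC 1.10) but not without preconditioned replicate 1 (log2FC 0.99). A block for replicate number gave an adjusted p of 0.0897.

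Among the regulators of basal keratin genes, TP63, the transcription factor that maintains basal epithelial cells, was lower in every preconditioned library than in every fresh library, which was so for 18.8% of all tested genes. It was expressed at 38.8, 35.8 and 38.0 FPKM in the fresh replicates and at 26.5, 16.6 and 15.9 FPKM in the preconditioned replicates. The log2FC was −0.77 (SE 0.19, adjusted p = 0.059) and did not pass the cutoffs, while TP63 was called without preconditioned replicate 1. Of the 6 regulators, 4 had a log2FC below 0, and TP63 was the only one at an unadjusted p under 0.05. Among linkers between keratins and junctions, EPPK1, an epithelial plakin that binds keratin filaments, had a log2FC of −1.03 (adjusted p = 0.0996), DST one of 0.85 (adjusted p = 0.16) and PLEC one of −0.84 (adjusted p = 0.17). EPPK1, DST and PLEC were also called without preconditioned replicate 1, in the fit that called 9.99% of all tested genes. Desmoplakin (DSP), which ties keratin filaments to desmosomes, had a log2FC of 0.14 (adjusted p = 0.495).

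A list of 42 genes associated with epithelial injury was followed beside KRT16 and KRT17, and 33 of 34 in the table were tested. Of these, 16 had a log2FC above 0 and 17 below 0, with a median of −0.04. PLAU, the urokinase plasminogen activator, was the only one called, where 1.08% of all tested genes were called higher. It rose from 922 ± 51.3 FPKM in fresh LSCs to 1867 ± 384 FPKM in preconditioned LSCs (SD, n = 3 each), a log2FC of 1.19 (SE 0.18, adjusted p = 0.031). IL36G, an epithelial cytokine of the IL-1 family, had 34.8, 45.8 and 62.9 FPKM in the fresh replicates and 16.4, 4.57 and 1.82 FPKM in the preconditioned replicates. As with KRT16, its value was lowest in preconditioned replicate 3, and the groups did not overlap (log2FC −2.50, SE 0.74, adjusted p = 0.083). DESeq2 called IL36G and PLAU, 2 of 34, where it called 5.37% of all genes. Without preconditioned replicate 1, PLAU was again called (log2FC 1.32), whereas its call was lost without any one of the other 5 libraries (log2FC 0.99 to 1.24, adjusted p = 0.075 to 0.13). It was also lost with the replicate number as a block (adjusted p = 0.080) and with limma on log2(FPKM + 1) and log2(FPKM + 0.1), where the difference lay just under the fold cutoff. GJB6, a connexin of injured and hyperproliferative epidermis, was at 42.9, 44.4 and 49.2 FPKM in the fresh replicates and at 32, 4.97 and 3.89 FPKM in the preconditioned replicates (log2FC −1.59, adjusted p = 0.21). SPRR3, a small proline-rich protein of mucosal epithelium, was at 0.378 ± 0.313 and 1.03 ± 0.444 FPKM (SD, n = 3 each), with a log2FC of 1.6 (adjusted p = 0.17). Without preconditioned replicate 1, 6 genes of the list were called, PLAU higher and AREG, EREG, GJB6, IL36G and SOCS3 lower. In that fit 3.98% of all tested genes were called higher and 6.01% lower. The log2FC was then −3.71 for IL36G and −3.18 for GJB6.

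The genes whose pattern over the 6 libraries was most like that of each keratin were taken by Pearson's r of log2 CPM. Candidates were 8316 or 8317 genes with a mean of at least 10 CPM and an identifier not starting with LOC. For KRT5 they were SNW1 (0.996), EPRS1 (0.985) and PIGC (0.982). For KRT15 they were VPS18 (0.978), PRAG1 (0.976) and TSEN34 (0.971), for KRT17 PLSCR3 (0.988), GALNT11 (0.987) and a row described as FLNA protein (0.983), and for KRT16 PRMT7 (0.996), COX2 (0.990) and COX3 (0.990), the last 2 being cytochrome c oxidase subunits of the mitochondrial genome with log2FCs of −1.65 and −1.81. None of the 12 is a keratin. The 13 protein-coding genes of the mitochondrial genome, taken by symbol after this was seen, held 1.84%, 1.73% and 1.21% of counts in the fresh replicates and 1.09%, 0.499% and 0.406% in the preconditioned replicates. All 13 had a log2FC below 0 (median −1.19), where 50.5% of all tested genes had one above 0. Of the 13, 5 were lower without overlap between the groups, as were 18.8% of all tested genes. None was called, where 2.29% of all tested genes were. As with KRT16, preconditioned replicates 2 and 3 were lowest, and the part of this shift in the KRT16 values was not tested. With 6 libraries and this many candidates, high values of r are reached by many genes. KRT16 and KRT5 had an r of 0.812 with each other, KRT16 and KRT17 one of 0.683, and KRT16 and keratin 14 one of 0.0334.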

How the data were processed

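RNA-seq of 6 rabbit LSC libraries was analysed. Per the methods, the authors aligned poly-A reads with hisat2 (v. 2.1.0) and deposited counts per gene from htseq-count (v.0.11.2) without normalization; the build, annotation and strand setting are not given in the sources used here. The deposited FPKM values, used for levels, are counts scaled by library total and by 1 length per gene, whose definition is not given. Counts were tested in R 4.3.3 with edgeR 4.0.16 (filterByExpr, TMM, robust quasi-likelihood test, condition as the only factor), with p values adjusted over all 15029 tested genes. CPM are TMM-scaled. Standard errors were derived from the F statistic. The spread between libraries, not the depth of 31952352 to 34327534 counts, limits the precision. Ratios were tested by exact 2-sided permutation.

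The keratins and the gene lists were chosen with earlier results of these data known. Genes named are the listed keratins, rows described as the same keratins, other keratins that were called or had at least 10 FPKM, called genes and the 3 largest changes of each list, marker genes, and the 3 genes most like each keratin. TP63, DSP and the pair of KRT5 with keratin 14 were named after their values were seen. Alternatives were DESeq2 1.42.0, other scalings and filters, a block for replicate number, omission of each library, and limma 3.58.1 on log2(FPKM + 1) and log2(FPKM + 0.1). The fits were tested on simulated data. A gene of the lists is not reported here by name.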

Additional observations from a re-analysis of the deposited data

How the results depend on the processing

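None of the 4 keratins was called under any of the 14 alternatives. KRT16 and KRT17 kept their direction in all of them. Leaving out each library gave log2FCs of −1.44 to −0.41 for KRT16, −1.16 to −0.37 for KRT17, −0.25 to 0.11 for KRT5 and −1.58 to 0.99 for KRT15. KRT5 turned without fresh replicate 1 (0.04) and without preconditioned replicate 3 (0.11). KRT15 turned with the replicate number as a block (−0.48), with limma on log2(FPKM + 1) (−0.18) and on log2(FPKM + 0.1) (−0.41), without fresh replicate 1 (−0.19), without fresh replicate 3 (−0.00) and without preconditioned replicate 1 (−1.58). The ratio of type I to type II keratins turned to 0.47 with keratin 14 included; leaving out each library gave −1.30 to −0.55 for it.

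Against 344 called genes, library size alone gave 565 (25.1% of them higher, against 47.4%), DESeq2 1190, the block 30, limma on log2(FPKM + 0.1) 521 with 23.6% higher and on log2(FPKM + 1) 257 with 29.2% higher, and leaving out a library 14 to 1546 (19, 14 and 47 without fresh replicates 1, 2 and 3, and 1546, 16 and 72 without preconditioned replicates 1, 2 and 3). Of the partner list, DESeq2 called 1, and leaving out each library 0 to 4. Of the injury list, DESeq2 called 2, the block 0, limma on log2(FPKM + 0.1) 0 and on log2(FPKM + 1) 1 (IL36G, not PLAU), and leaving out each library 0 to 6. Of other keratins, leaving out each library gave 0 to 1. Libraries with the same replicate number did not deviate together (mean correlation −0.083 across genes). Between different numbers the correlations ranged from −0.185 to 0.225, and whether any libraries share an animal was not tested. With the block, KRT16 had a log2FC of −1.05 (adjusted p = 0.165). The cause of these changes was not tested.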
